A study of Rattus norvegicus with 11 samples.

Results

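Glycolytic enzymes and other genes known as targets of the hypoxia-inducible factors (HIFs) were followed in lungs of rats of the Dahl salt-sensitive strain, measured whole. The 39 genes were chosen by name, and every probe set whose annotated symbol was exactly that of a listed gene was taken: 61 of 31099 probe sets, for 37 genes. Of these, 55 probe sets for 36 genes entered the tests, 24 genes of glucose uptake and glycolysis and 12 other HIF targets. The remaining 6 are array control probe sets, 3 for Gapdh and 3 for Hk1. Gapdh is therefore described without a test, and Hk3 and Pkm have no probe set by this rule.

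The lungs came from 3 groups of animals weighing 250 to 350 g. Rats breathing about 9.5% oxygen were given SU5416, an inhibitor of the receptors for vascular endothelial growth factor (3 arrays). A second group had the same hypoxia with vehicle (4 arrays), and normoxia controls had room air with vehicle (4 arrays). Lungs were taken at 3.5 weeks, after the pulmonary vessels had been perfused. The sorafenib group of the study was not analysed here, and the labels do not say whether each array was a different animal, so the p-values measure the spread between these arrays. All 7 measured markers of alveolar type II cells, the surfactant-producing cells of the lung, were above background in each group.

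Glycolysis splits glucose into pyruvate in the cytosol and yields ATP without oxygen. Lactate dehydrogenase then turns pyruvate into lactate, which restores the NAD+ that the pathway needs. When oxygen is low, HIF alpha subunits escape hydroxylation and degradation, pair with HIF-1 beta and bind hypoxia response elements, whose core reads ACGTG or GCGTG, near genes for glucose carriers, glycolytic enzymes and pyruvate dehydrogenase kinase. The lung differs from most organs in that low inspired oxygen reaches its air spaces directly and constricts its small arteries.

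The array annotation could be joined to RefSeq promoter windows, each 250 bases before to 50 after a gene's start in rat build GRCr8, for 32 of the 36 tested genes (37 windows). The 4 genes without a window in that table were Bnip3l, Ndrg1, Pgk1 and Slc2a3. ACGTG, searched on both strands, was found in 21 of the 37 windows (56.8%), against 19.3% of all 33469 windows. GCGTG, searched in the same way, was found in 18 (48.6%), against 29.7% of all windows. Either motif was present for 25 of the 32 genes (78.1%), against 44.6% of all genes. The windows of these genes also had more G and C, with a median of 64.0% against 51.7% of bases, and a motif match is a description of letters, not a measured binding site. Adm, Hk2, Pfkfb1, Pfkfb2, Pfkfb4, Slc16a3 and Tpi1 had neither motif in the window. The 250 bases before the start are printed for 4 genes among those with the smallest p-values that hold a core motif and for Tpi1, which holds none. They are written 5′ to 3′ on the gene's own strand, with capitals marking ACGTG or GCGTG on either strand (CACGT or CACGC when read on the other strand). The windows are Ldha at chr1:106507842-106508091 (plus strand), Bnip3 at chr1:203154963-203155212 (minus strand), Ddit4 at chr20:28437038-28437287 (minus strand), Pfkl at chr20:10663715-10663964 (plus strand) and Tpi1 at chr4:159305089-159305338 (minus strand).
Ldha: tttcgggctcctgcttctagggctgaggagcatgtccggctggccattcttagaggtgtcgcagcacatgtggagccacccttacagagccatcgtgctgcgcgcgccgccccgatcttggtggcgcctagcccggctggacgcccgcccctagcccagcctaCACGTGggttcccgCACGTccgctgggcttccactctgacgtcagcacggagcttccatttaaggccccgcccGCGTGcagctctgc
Bnip3: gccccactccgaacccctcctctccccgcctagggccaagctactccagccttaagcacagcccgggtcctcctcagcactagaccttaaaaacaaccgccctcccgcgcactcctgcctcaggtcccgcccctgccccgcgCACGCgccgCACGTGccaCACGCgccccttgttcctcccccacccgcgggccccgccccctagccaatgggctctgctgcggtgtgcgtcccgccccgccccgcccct
Ddit4: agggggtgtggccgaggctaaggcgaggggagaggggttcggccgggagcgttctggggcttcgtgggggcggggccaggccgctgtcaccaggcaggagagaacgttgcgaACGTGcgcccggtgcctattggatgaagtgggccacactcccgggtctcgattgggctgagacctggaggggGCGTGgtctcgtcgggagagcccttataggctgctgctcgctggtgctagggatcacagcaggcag
Pfkl: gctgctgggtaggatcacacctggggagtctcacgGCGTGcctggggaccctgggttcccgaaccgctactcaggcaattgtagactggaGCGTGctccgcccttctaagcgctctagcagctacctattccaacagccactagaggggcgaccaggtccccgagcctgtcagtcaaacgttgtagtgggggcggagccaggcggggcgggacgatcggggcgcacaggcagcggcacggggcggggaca
Tpi1: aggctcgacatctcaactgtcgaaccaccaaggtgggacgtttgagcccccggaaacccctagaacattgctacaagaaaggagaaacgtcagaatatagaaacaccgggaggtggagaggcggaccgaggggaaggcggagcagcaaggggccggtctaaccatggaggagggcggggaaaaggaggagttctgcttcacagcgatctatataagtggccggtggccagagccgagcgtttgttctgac
In Ldha and in Bnip3, 2 of the 4 upstream matches are the same 6 letters CACGTG read on both strands. Ddit4 holds 1 match to each motif, and Pfkl holds 2 matches to GCGTG.

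Values are log2 signals, so a difference of 1 is a doubling, and a gene with several probe sets stands by the brightest of them. Signals of different probe sets are not compared as levels. Each difference is given with its standard error (SE) and with the p-value of a two-sided limma test, adjusted by the Benjamini-Hochberg method over 31042 probe sets and called below 0.05. Both comparisons with normoxia use the same 4 normoxia arrays and are not independent of each other. By the beta-actin and Gapdh controls of the array, normoxia arrays 1 and 2 stood apart from the rest. Their beta-actin signal was 2.24 and 1.33 log2 higher at the 3′ than at the 5′ probe set, against 0.51 to 0.87 on the other 9 arrays. A wide gap is a known sign of degraded or incompletely copied RNA. The hexokinase gap was 3.22 log2 on normoxia array 2, but its 1.82 log2 on normoxia array 1 lay within the 1.06 to 2.44 log2 of the other 9. However, the 5′ hexokinase probe set was below background on normoxia arrays 1 and 2 (5.02 and 3.89 log2) and on hypoxia arrays 2 and 3. The hexokinase gap therefore cannot grade the RNA of normoxia arrays 1 and 2. Without these 2 arrays, 2 of the 36 genes changed sign and 21 moved by over 1.5 times in hypoxia with SU5416, and 6 changed sign and 16 moved in hypoxia. Their values without the 2 arrays stand beside them.

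No gene of the 36 was called in hypoxia with SU5416 against normoxia, in hypoxia against normoxia, in both hypoxic groups together against normoxia, or in hypoxia with SU5416 against hypoxia. By the same limma test, 0.0844%, 0%, 0.00703% and 0.0352% of all 14217 genes were called in these 4 comparisons. The lowest adjusted p of any of the 36 genes in limma was 0.10 for Ldha in hypoxia with SU5416, 0.249 for Pfkl in hypoxia alone, and 0.116 for Ldha in both groups together. Below the threshold, the genes lay mostly on the higher side. Their median difference from normoxia was 0.14 log2 in hypoxia with SU5416 and 0.13 log2 in hypoxia, against -0.02 and -0.01 log2 over all genes. In hypoxia with SU5416, 26 of the 36 genes (72.2%) had a mean above normoxia, against 47.4% of all genes. In hypoxia the number was 25 (69.4%), against 48.8% of all genes. The 24 glycolysis genes had medians of 0.18 log2 in hypoxia with SU5416 and 0.19 log2 in hypoxia, and the other 12 HIF targets 0.07 and 0.10 log2.

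An unadjusted p under 0.05 with a higher mean was reached by 8 genes (22.2%) in hypoxia with SU5416, against 6.02% of all genes. They were Aldoa, Bnip3, Ddit4, Eno1, Eno2, Ldha, Pfkl and Tpi1. In hypoxia alone 12 genes (33.3%) reached it, against 4.3% of all genes: the same 8 with Aldoc, Hk1, Pfkfb3 and Slc16a3. This count in hypoxia was 7 without hypoxia array 1, against 3.09% of all genes. It was 9 without normoxia arrays 1 and 2, against 7.93% of all genes. In hypoxia with SU5416 it was 11 without the 2 normoxia arrays, against 7.1% of all genes. On the lower side stood Pfkfb1 and Pfkfb4 in hypoxia with SU5416 (5.56%, against 6.7% of all genes) and Pfkfb4 in hypoxia (2.78%, against 5.29%), shares no higher than the background. With both hypoxic groups in 1 contrast, 28 genes (77.8%) had a higher mean, against 48% of all genes. In that comparison 11 genes (30.6%, against 6.22%) reached the unadjusted threshold on the higher side and 2 genes, Pfkfb1 and Pfkfb4 (5.56%, against 6.98%), on the lower side. The arrays did not overlap with normoxia, on the higher side, for 11 genes in hypoxia with SU5416 (30.6%, against 6.59% of all genes) and for 5 in hypoxia (13.9%, against 2.93%). The 5 were Aldoa, Eno1, Eno2, Ldha and Pfkl. On the lower side it was Pfkfb4 alone with SU5416 (2.78%, against 6.83%) and in hypoxia (2.78%, against 3%).

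**Figure D1:**
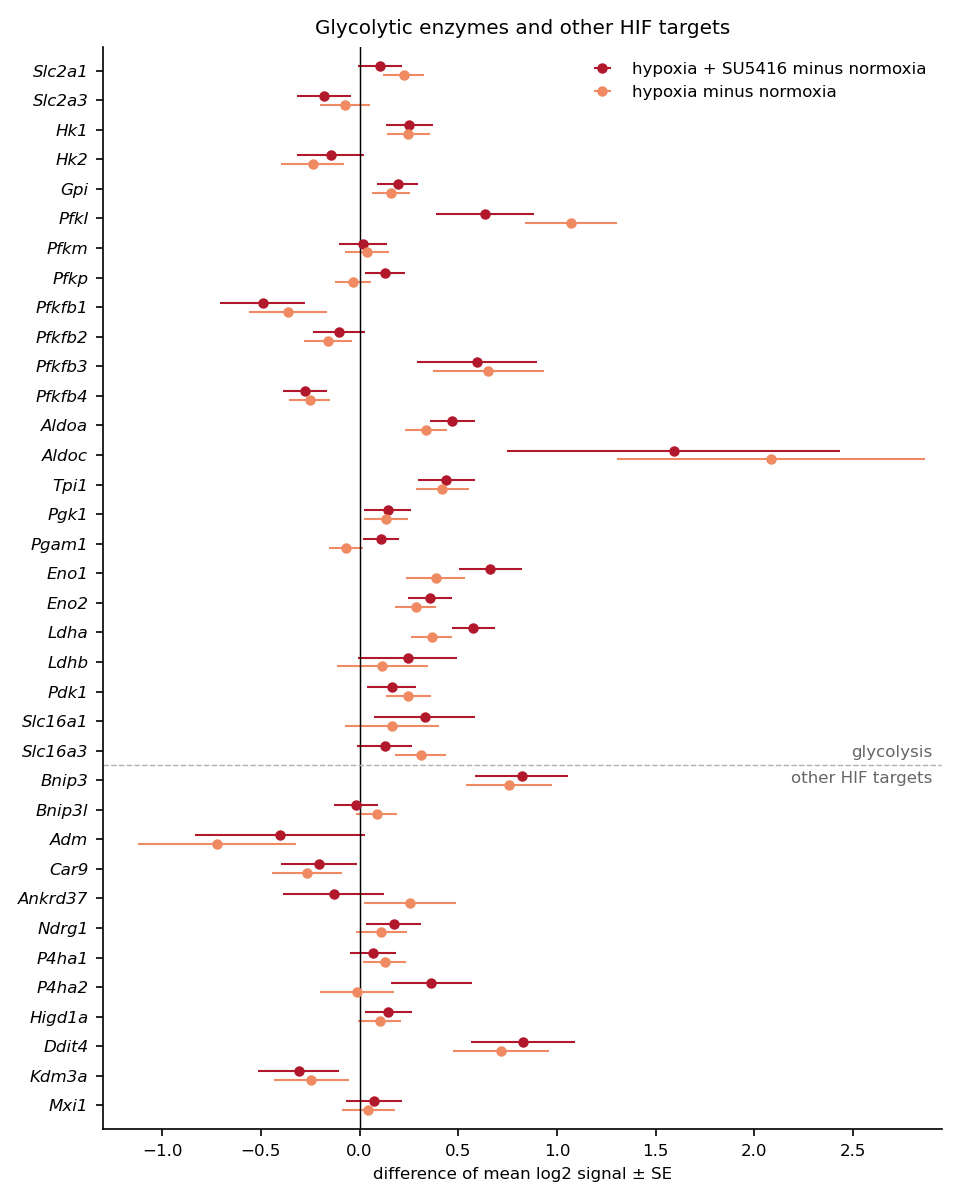
Difference of mean log2 signal from normoxia lungs (horizontal axis, points with SE bars) for the 36 tested genes, in hypoxia with SU5416 (dark red, upper point) and in hypoxia (orange, lower point). Most points lie right of 0, with Aldoc, Pfkl, Bnip3, Ddit4 and Pfkfb3 farthest right and Adm farthest left in hypoxia.

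Glucose enters the cell through the carriers Slc2a1 (GLUT1) and Slc2a3 (GLUT3). Slc2a1 stood 0.10 log2 higher in hypoxia with SU5416 (SE 0.11) and 0.22 log2 higher in hypoxia (SE 0.10), and Slc2a3 differed from normoxia by -0.18 and -0.07 log2. Hexokinases trap glucose as glucose 6-phosphate. Hk1, the widely expressed form, stood 0.25 log2 higher in both groups (SE 0.12 with SU5416 and 0.11 without). Hk2, the form best known as a HIF target, differed by -0.15 and -0.24 log2 in the same order. Gpi, the isomerase that makes fructose 6-phosphate, stood 0.19 log2 higher with SU5416 and 0.16 log2 higher in hypoxia. Without normoxia arrays 1 and 2, Hk1 stood 0.405 and 0.40 log2 higher, Hk2 differed by -0.36 and -0.45 log2, and Gpi stood 0.31 and 0.275 log2 higher. Slc2a1 with SU5416 was then 0.20 log2 higher, and Slc2a3 differed by -0.09 and 0.01 log2. With all arrays, none of these 5 genes reached an adjusted p under 0.4 in limma in either comparison.

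Phosphofructokinase commits sugar to glycolysis and is built from liver, muscle and platelet subunits, encoded by Pfkl, Pfkm and Pfkp. Pfkl had 10.07, 10.07 and 9.89 log2 in hypoxia with SU5416, 10.63, 10.51, 10.53 and 10.11 log2 in hypoxia, and 9.62, 9.98, 8.92 and 8.98 log2 in normoxia. All 4 hypoxia arrays lay above all normoxia arrays, and the SU5416 arrays overlapped with normoxia at array 2. The difference was 0.63 log2 with SU5416 (SE 0.25, limma adjusted p = 0.34) and 1.07 log2 in hypoxia (SE 0.23, 2.10-fold, adjusted p = 0.249). Normoxia arrays 1 and 2 were the 2 higher normoxia arrays for Pfkl. Without them Pfkl was 1.06 log2 higher with SU5416 (limma adjusted p = 0.083) and 1.49 log2 higher in hypoxia, where it was called (adjusted p = 0.0233). The other subunits lay near normoxia. Pfkm differed by 0.02 log2 with SU5416 and 0.04 log2 in hypoxia, and Pfkp by 0.13 and -0.03 log2, each with an SE of 0.12 or less. Pfkm differed by 0.06 and 0.08 log2 without normoxia arrays 1 and 2, and Pfkp by 0.09 and -0.075 log2.

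The bifunctional enzymes of the Pfkfb family set the level of fructose 2,6-bisphosphate, the strongest activator of phosphofructokinase. Pfkfb3, the isoform with high kinase activity and a known HIF target, had 10.18, 10.39 and 10.07 log2 in hypoxia with SU5416, 10.65, 10.55, 9.97 and 9.91 log2 in hypoxia, and 9.92, 10.23, 9.38 and 8.95 log2 in normoxia. The groups overlapped, and normoxia arrays 3 and 4 were the lowest of all 11. The difference was 0.60 log2 with SU5416 (SE 0.30, limma adjusted p = 0.46) and 0.65 log2 in hypoxia (SE 0.28, adjusted p = 0.45). Without normoxia arrays 1 and 2 it was 1.05 log2 with SU5416 (limma adjusted p = 0.175) and 1.11 log2 in hypoxia (adjusted p = 0.105). Among its other probe sets the lowest difference was -0.22 log2 with SU5416 and -0.44 log2 in hypoxia, so the probe sets of Pfkfb3 did not share a direction. Pfkfb4, also known as a HIF target, ran the other way. It had 8.48, 8.29 and 8.11 log2 in hypoxia with SU5416, 8.32, 8.26, 8.27 and 8.41 log2 in hypoxia, and 8.64, 8.50, 8.63 and 8.50 log2 in normoxia. All 7 hypoxic arrays lay below all 4 normoxia arrays (-0.28 log2, SE 0.11, and -0.25 log2, SE 0.10, limma adjusted p = 0.35 and 0.42). Pfkfb4 was the only gene of the 36 without overlap on the lower side in both groups together (2.78%, against 1.27% of all genes). Its second probe set was below background on all 11 arrays. Pfkfb1, the liver and muscle isoform, differed by -0.49 and -0.36 log2, and Pfkfb2, the heart isoform, by -0.10 and -0.16 log2. Pfkfb2 differed by -0.27 and -0.32 log2 without normoxia arrays 1 and 2. Another Pfkfb2 probe set, above background on all arrays, differed by -0.53 log2 with SU5416 (SE 0.16, limma unadjusted p = 0.0078, adjusted p = 0.24). In hypoxia that probe set differed by -0.28 log2 (SE 0.15). Its remaining probe sets differed by 0.04 and 0.89 log2 with SU5416 and by 0.23 and -0.67 log2 in hypoxia.

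Aldolase splits fructose 1,6-bisphosphate, and triosephosphate isomerase (Tpi1) interconverts its products. Aldoa, the main aldolase of muscle and most tissues, had 12.95, 12.70 and 12.87 log2 in hypoxia with SU5416, 12.80, 12.71, 12.64 and 12.67 log2 in hypoxia, and 12.19, 12.57, 12.36 and 12.36 log2 in normoxia. All 7 hypoxic arrays lay above all normoxia arrays. Aldoa stood 0.47 log2 higher with SU5416 (SE 0.12, 1.39-fold, limma adjusted p = 0.164) and 0.34 log2 higher in hypoxia (SE 0.11, 1.26-fold, adjusted p = 0.339). Tpi1 had 11.53, 11.58 and 11.56 log2 in hypoxia with SU5416, 11.77, 11.55, 11.49 and 11.34 log2 in hypoxia, and 10.82, 11.06, 11.34 and 11.25 log2 in normoxia. The SU5416 arrays lay above all normoxia arrays, and the lowest hypoxia array equalled the highest normoxia array at 11.34 log2. Tpi1 was 0.44 log2 higher with SU5416 (SE 0.15) and 0.42 log2 higher in hypoxia (SE 0.13), and 0.26 and 0.24 log2 higher without normoxia arrays 1 and 2.

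Aldoc, the aldolase of brain, had the largest SD of the 36 genes in both hypoxic groups and is described although the rule for naming genes did not select it, a choice made after its values were seen. It had 5.85, 5.96 and 8.26 log2 in hypoxia with SU5416, 8.37, 8.08, 7.49 and 4.78 log2 in hypoxia, and 5.04, 4.75, 5.16 and 5.44 log2 in normoxia. All 4 normoxia arrays were below the background level of 5.72 log2, which is the 95th percentile of 27 bacterial control probe sets. Against that level Aldoc was at least 1.96-fold higher with SU5416 and at least 2.75-fold higher in hypoxia, with 3 of 3 and 3 of 4 arrays above background. These bounds rest on single arrays: without SU5416 array 3 the first was 1.14-fold, and without hypoxia array 4 the second was 4.80-fold. The limma adjusted p was 0.48 with SU5416 and 0.39 in hypoxia, and hypoxia array 4 was as low as normoxia.

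Enolase makes phosphoenolpyruvate. Eno1, the ubiquitous form, had 11.86, 11.82 and 11.75 log2 in hypoxia with SU5416, 11.57, 11.63, 11.50 and 11.43 log2 in hypoxia, and 10.67, 11.28, 11.31 and 11.33 log2 in normoxia. The 3 groups did not overlap at any point, with the SU5416 arrays highest and normoxia lowest. Eno1 stood 0.66 log2 higher with SU5416 (SE 0.16, 1.58-fold, limma adjusted p = 0.159) and 0.39 log2 higher in hypoxia (SE 0.15, adjusted p = 0.399). Normoxia array 1 lay far below the other normoxia arrays for Eno1. Without normoxia arrays 1 and 2 the differences were 0.49 and 0.21 log2. Eno2, the neuronal form and a known HIF target, had 8.15, 8.05 and 8.21 log2 in hypoxia with SU5416, 7.87, 7.99, 8.19 and 8.20 log2 in hypoxia, and 7.85, 7.69, 7.83 and 7.75 log2 in normoxia. All 7 hypoxic arrays were above all normoxia arrays for Eno2 (0.36 log2, SE 0.11, with SU5416 and 0.29 log2, SE 0.10, in hypoxia, limma adjusted p = 0.26 and 0.38). The ATP-forming kinase Pgk1 stood 0.14 log2 higher with SU5416 and 0.13 log2 higher in hypoxia, and the mutase Pgam1 differed by 0.11 and -0.07 log2. Pgk1 stood 0.26 and 0.25 log2 higher without normoxia arrays 1 and 2, and Pgam1 differed by 0.06 and -0.12 log2. With all arrays, another Pgk1 probe set stood 0.27 log2 higher with SU5416 (SE 0.11, limma unadjusted p = 0.032, adjusted p = 0.35) and 0.10 log2 higher in hypoxia (SE 0.10). Its normoxia arrays had 10.74, 10.87, 11.1 and 10.98 log2, with arrays 1 and 2 the lowest of all 11. Normoxia array 3 lay above every hypoxia array, the highest of which had 11.08 log2. Over both hypoxic groups, 4 genes lay above normoxia without overlap (11.1%, against 1.15% of all genes), and they were Aldoa, Eno1, Eno2 and Ldha.

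Ldha encodes the M subunit of lactate dehydrogenase, which favours the step to lactate. It had 12.37, 12.35 and 12.46 log2 in hypoxia with SU5416, 12.28, 12.19, 12.15 and 12.11 log2 in hypoxia, and 11.63, 12.02, 11.84 and 11.78 log2 in normoxia. The 3 groups did not overlap, in the same order as for Eno1. Ldha stood 0.58 log2 higher with SU5416 (SE 0.11, 1.49-fold, 95% interval 0.33 to 0.82, limma adjusted p = 0.10). In hypoxia it stood 0.37 log2 higher (SE 0.10, 1.29-fold, 95% interval 0.14 to 0.59, limma adjusted p = 0.301). These differences were 0.58 and 0.37 log2 also without normoxia arrays 1 and 2. Ldha was called in hypoxia with SU5416 when dim probe sets were left out of the adjustment (limma adjusted p = 0.0267) and when the variance was fitted with a trend and robustly (adjusted p = 0.0216). Ldhb, the H subunit, stood 0.24 log2 higher with SU5416 and 0.12 log2 higher in hypoxia, with SEs of 0.25 and 0.23. Ldhb differed by 0.03 and -0.0975 log2 without normoxia arrays 1 and 2. Pdk1, a kinase that shuts pyruvate dehydrogenase, stood 0.16 and 0.25 log2 higher. The second probe set of Pdk1 stood 0.64 log2 higher with SU5416 (SE 0.25, unadjusted p = 0.0285) and 0.52 log2 higher in hypoxia (SE 0.23, unadjusted p = 0.0467), with limma adjusted p = 0.34 and 0.45. Its normoxia arrays had 7.15, 7.93, 8.36 and 7.86 log2, so these differences lean on normoxia array 1. The lowest arrays of both hypoxic groups, at 8.30 log2 with SU5416 and 8.17 log2 in hypoxia, lay below normoxia array 3. Of the lactate carriers, Slc16a1 (MCT1) stood 0.33 and 0.16 log2 higher, and Slc16a3 (MCT4), a known HIF target, 0.13 and 0.31 log2 higher. Slc16a1 had the opposite sign without normoxia arrays 1 and 2, at -0.10 log2 with SU5416 and -0.27 log2 in hypoxia, and Slc16a3 then stood 0.01 and 0.19 log2 higher.

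**Figure D2:**
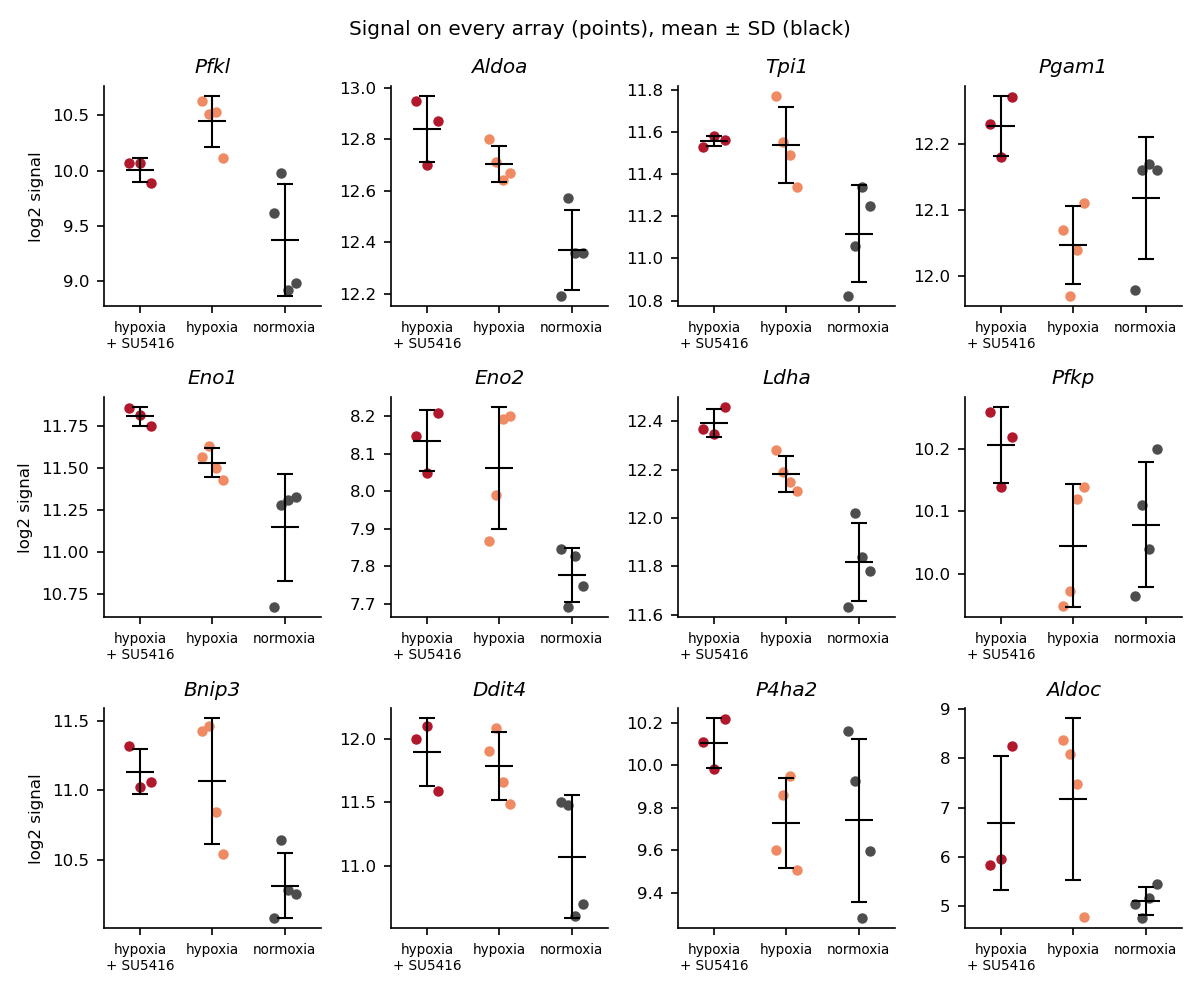
Log2 signal on each array (points) with mean and SD (black) for the 11 genes that the naming rule selected and for Aldoc, in hypoxia with SU5416, hypoxia and normoxia. Eno1 and Ldha show 3 separate levels, with SU5416 arrays at 11.75 to 11.86 and 12.35 to 12.46 log2, and Aldoc scatters over more than 3 log2 units in hypoxia.

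Gapdh, which oxidises glyceraldehyde 3-phosphate and is widely used as a loading control, was read by 3 control probe sets along its transcript. The 3′ probe set had 12.79, 12.62 and 12.70 log2 in hypoxia with SU5416, 12.54, 12.45, 12.45 and 12.40 log2 in hypoxia, and 11.73, 12.44, 12.36 and 12.11 log2 in normoxia. Its SU5416 arrays lay above all other arrays, and hypoxia overlapped with normoxia. The middle probe set averaged 12.2 ± 0.122 log2 with SU5416 (SD, n = 3), 11.8 ± 0.148 in hypoxia and 11.4 ± 0.466 in normoxia (SD, n = 4 each). The 5′ probe set averaged 12.6 ± 0.118 log2 with SU5416, 12.1 ± 0.156 in hypoxia and 11.7 ± 0.601 in normoxia, with the same n. Normoxia array 1 was the lowest array for each of the 3 probe sets. The gap between the 3′ and the 5′ probe set of Gapdh was 0.84 and 0.64 log2 on normoxia arrays 1 and 2 and 0.06 to 0.52 log2 on the other 9 arrays. These controls stood outside the fit, so their differences have no test.

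**Figure D3:**
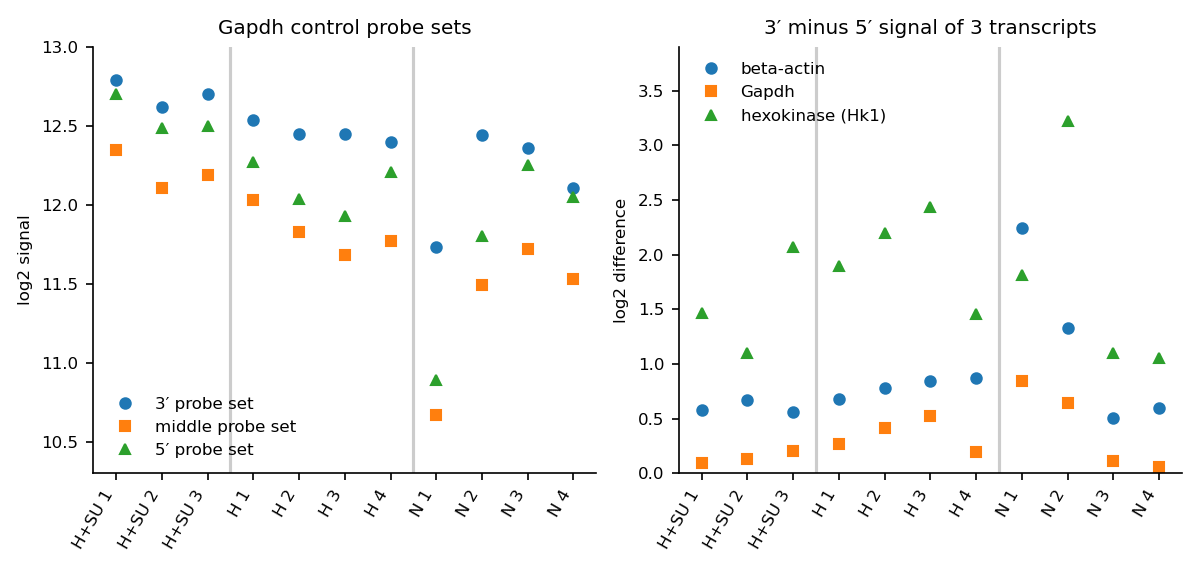
Left, log2 signal of the 3 Gapdh control probe sets on each array; right, 3′ minus 5′ log2 signal of beta-actin, Gapdh and hexokinase (Hk1), with hypoxia with SU5416 (H+SU), hypoxia (H) and normoxia (N) separated by grey lines. All 3 Gapdh probe sets are lowest on normoxia array 1, and the beta-actin gap is widest on normoxia arrays 1 and 2, at 2.24 and 1.33 log2.

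Among the other HIF targets, Bnip3, a mitochondrial protein that marks mitochondria for autophagy, had 11.32, 11.02 and 11.06 log2 in hypoxia with SU5416, 11.43, 11.46, 10.84 and 10.54 log2 in hypoxia, and 10.08, 10.64, 10.28 and 10.25 log2 in normoxia. The SU5416 arrays lay above all normoxia arrays, and 1 hypoxia array lay below the highest normoxia array. Bnip3 stood 0.82 log2 higher with SU5416 (SE 0.23, 1.77-fold, limma adjusted p = 0.212) and 0.76 log2 higher in hypoxia (SE 0.22, 1.69-fold, adjusted p = 0.309). Its relative Bnip3l (NIX) differed by -0.02 log2 with SU5416 and 0.09 log2 in hypoxia, and by 0.12 and 0.22 log2 without normoxia arrays 1 and 2. Ddit4 (REDD1), an inhibitor of mTORC1 signalling, had 12.00, 12.10 and 11.59 log2 in hypoxia with SU5416, 11.91, 12.09, 11.66 and 11.49 log2 in hypoxia, and 11.50, 11.48, 10.60 and 10.70 log2 in normoxia. Normoxia arrays 3 and 4 were the lowest of all 11 arrays, and normoxia arrays 1 and 2 lay close to the lower hypoxic arrays. The difference was 0.83 log2 with SU5416 (SE 0.26, limma adjusted p = 0.263) and 0.72 log2 in hypoxia (SE 0.24, adjusted p = 0.357), and 1.25 and 1.14 log2 without normoxia arrays 1 and 2.

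None of the other 10 HIF targets reached an unadjusted p under 0.05 in limma at its brightest probe set in either comparison with normoxia. Adm, the vasodilator peptide adrenomedullin, differed by -0.40 log2 with SU5416 (SE 0.43) and by -0.72 log2 in hypoxia (SE 0.40), the lowest value of the 36 genes in hypoxia. Without normoxia arrays 1 and 2 its difference was -1.12 and -1.44 log2 (limma adjusted p = 0.21 and 0.096). Car9, a membrane carbonic anhydrase and a widely used marker of tissue hypoxia, differed by -0.21 and -0.27 log2. Kdm3a, a histone demethylase, differed by -0.31 and -0.24 log2. Ankrd37, an ankyrin repeat protein, differed by -0.13 log2 with SU5416 and 0.26 log2 in hypoxia. The collagen prolyl hydroxylase subunits P4ha1 and P4ha2 differed by 0.07 and 0.36 log2 with SU5416 and by 0.13 and -0.01 log2 in hypoxia. Ndrg1, the mitochondrial protein Higd1a and the MAX-binding repressor Mxi1 differed by 0.17, 0.15 and 0.07 log2 with SU5416 and by 0.11, 0.10 and 0.05 log2 in hypoxia. The second probe set of Higd1a stood 0.55 log2 higher with SU5416, without overlap (SE 0.23, unadjusted p = 0.035, limma adjusted p = 0.36), and 0.45 log2 higher in hypoxia. That of Ndrg1 differed by 0.52 log2 with SU5416 (SE 0.40) and by -0.27 log2 in hypoxia (SE 0.37). Several of these values depended on normoxia arrays 1 and 2. Without them P4ha2 stood 0.67 and 0.29 log2 higher, and Ankrd37 with SU5416 differed by -0.01 log2. Ndrg1, Higd1a and Mxi1 then differed by 0.04, 0.07 and 0.02 log2 with SU5416 and by -0.02, 0.025 and -0.005 log2 in hypoxia.

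SU5416 was compared with hypoxia alone to see what the receptor inhibitor added. The median difference of the 36 genes was 0.03 log2, against -0.00458 log2 for all genes, and 22 genes (61.1%) had the higher mean with SU5416, against 49% of all genes. No gene reached an unadjusted p under 0.05 on the higher side, against 3.67% of all genes, or on the lower side, against 3.63%. Eno1, Ldha, P4ha2 and Pgam1 had SU5416 arrays above all hypoxia arrays (11.1%, against 6.07% of all genes), and Pfkl had them below all hypoxia arrays (2.78%, against 6.53%). Ldha was 0.21 log2 higher (95% interval -0.04 to 0.46) and Eno1 0.28 log2 higher (95% interval -0.08 to 0.64). Pgam1 had 12.23, 12.18 and 12.27 log2 with SU5416, against 12.07, 11.97, 12.04 and 12.11 log2 in hypoxia, a difference of 0.18 log2 (SE 0.09, limma adjusted p = 0.733). P4ha2 had 10.11, 9.98 and 10.22 log2 with SU5416, against 9.60, 9.86, 9.95 and 9.51 log2 in hypoxia, a difference of 0.38 log2 (SE 0.20). Its normoxia arrays ran between 9.28 and 10.16 log2 and covered both groups. Pfkp was 0.16 log2 higher (SE 0.10), with overlapping arrays. Pfkl stood 0.44 log2 lower than in hypoxia (-0.44 log2, 95% interval -0.99 to 0.12). The intervals of Ldha, Eno1 and Pfkl all include 0, which does not show that the groups were alike. The beta-actin gap also differed between these groups, at 0.56 to 0.67 log2 with SU5416 and 0.68 to 0.87 log2 in hypoxia. With this gap added to the model, Ldha was 0.19 log2 and Eno1 0.21 log2 higher, and Pfkl differed by -0.36 log2.

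Of the 14 genes with several tested probe sets, 6 had all of them on the same side of normoxia over both hypoxic groups. They were Bnip3l, Higd1a, Ndrg1, P4ha2, Pdk1 and Slc2a3. Hk1 had 0.25 log2 at its brightest probe set and -0.20 log2 at the other. The discordant probe sets of Pfkfb4, Pgk1 and Slc16a1 were below background on all 11 arrays. Counting only probe sets with a mean above background, 7 of 12 genes had all of them on 1 side, now with Pgk1, and the 5 that did not were Hk1, Mxi1, Pfkfb2, Pfkfb3 and Pfkm. The genes with the smallest p-values, Ldha, Pfkl, Aldoa, Eno1, Bnip3, Tpi1 and Ddit4, each have 1 tested probe set.

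**Figure D4:**
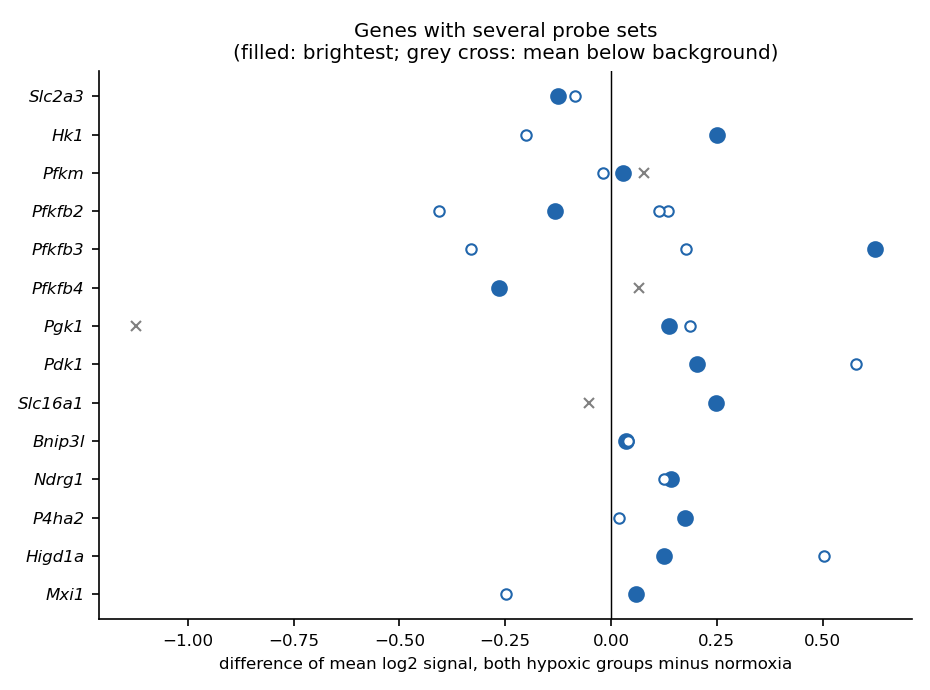
Difference of mean log2 signal between both hypoxic groups and normoxia (horizontal axis) for each probe set of the 14 genes with several, the brightest filled and those with a mean below background as grey crosses. For 8 of the 14 genes the probe sets fall on both sides of 0, and for Pfkfb4, Pgk1 and Slc16a1 the probe set on the other side is a grey cross.

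The samples are whole lung, so fewer cells of a type and less RNA per cell cannot be told apart. With SU5416 the sums of smooth muscle, macrophage, lymphocyte, erythroid and endothelial markers did not overlap with normoxia. In hypoxia only the lymphocyte sums did not. The summed linear signal of 7 smooth muscle markers ran between 18158 and 20558 with SU5416, 10659 and 16107 in hypoxia, and 10868 and 14146 in normoxia. With SU5416, 7 of 7 were higher than in normoxia, against 47.4% of all genes. The 8 measured macrophage markers summed to 10929 to 16234 with SU5416, 8503 to 9348 in hypoxia and 5938 to 9901 in normoxia, with Ms4a7 below background in hypoxia and in normoxia. Ms4a7 averaged 9.45 log2 with SU5416, 4.56 log2 in hypoxia and 4.92 log2 in normoxia, and was called with SU5416 against normoxia (limma adjusted p = 0.00263). The list did not move as 1: with SU5416, 7 of the 8 markers were higher than in normoxia and 1 differed by -0.87 log2. Of 6 lymphocyte markers, 6 were lower than normoxia in each hypoxic group, against 7472 of all 14217 genes with SU5416 and 7270 in hypoxia. Their sums were 1446 to 1634, 1280 to 1480 and 1660 to 2211 in the same order as above. The 5 measured erythroid markers summed to 11113 to 12601, 8888 to 12456 and 5989 to 11076, with Ahsp and Epb42 below background in each group. The 7 measured endothelial markers summed to 22169 to 24111 with SU5416, 26039 to 27010 in hypoxia and 25248 to 31006 in normoxia. The 9 measured cardiac muscle markers summed to 1566 to 5688, 1284 to 4222 and 1252 to 19298 in the same order, the last range being the widest. The 5 measured neutrophil markers summed to 1649 to 2314, 1466 to 2261 and 1958 to 2853, with Camp below background in each group. Of these 5, 3 were lower than normoxia with SU5416 and 5 in hypoxia, beside the shares of all genes given for the lymphocyte markers. The part of these cells in the values of the glycolytic genes was not tested.

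Normoxia array 1 was the lowest of the 11 arrays for 11 of the 36 genes, among them Aldoa, Tpi1, Eno1, Ldha and Bnip3. Normoxia arrays 3, 4 and 2 were the lowest for 6, 5 and 3 genes. These counts have no share over all genes beside them, so they are not a trait of this list. Over all genes the median SD was also widest in normoxia, at 0.23 log2, against 0.17 log2 in hypoxia and 0.16 log2 with SU5416. Over the 36 genes, the median deviation from a gene's mean of all arrays was 0.02 to 0.13 log2 on the SU5416 arrays, 0.001 to 0.10 log2 on the hypoxia arrays and -0.16 to -0.02 log2 on the normoxia arrays, against -0.02 to 0.03 log2 over all genes. On hypoxia array 4 the median of the 36 genes was lower than that of all genes (0.03 log2). For the 12 other HIF targets alone the groups overlapped, with -0.03 log2 on hypoxia array 4 and 0.02 and 0.01 log2 on normoxia arrays 2 and 4. Without normoxia arrays 1 and 2 the median difference of the 36 genes was 0.08 log2 with SU5416 and 0.19 log2 in hypoxia. The genes that changed sign were Slc16a1 and Bnip3l with SU5416, and Slc2a3, Ldhb, Slc16a1, Ndrg1, P4ha2 and Mxi1 in hypoxia. The part of RNA quality in these values was not tested beyond leaving the arrays out and adding the beta-actin gap to the model. With the gap in the model no gene was called, and Ldha stood 0.52 log2 higher with SU5416 and 0.33 log2 higher in hypoxia. Other genes moved more, and 4 of the 36 changed sign in each comparison with normoxia. With SU5416, Eno1 then stood 0.46 log2 and Tpi1 0.27 log2 higher, and Slc16a1 and Ldhb differed by -0.05 and -0.02 log2. Pfkl and Ddit4 moved the other way, to 0.88 and 1.12 log2, and Adm differed by -0.99 log2.

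**Figure D5:**
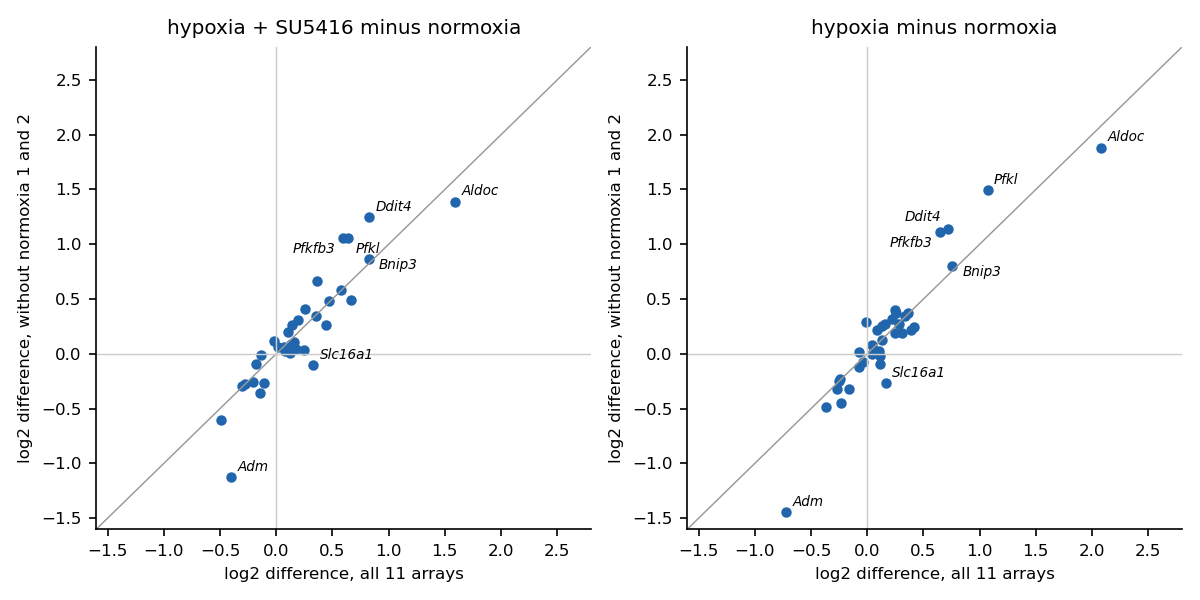
Log2 difference from normoxia for each of the 36 genes with all 11 arrays (horizontal axis) and without normoxia arrays 1 and 2 (vertical axis), for hypoxia with SU5416 (left) and hypoxia (right), with the line of equality. Pfkl, Ddit4 and Pfkfb3 lie above the line, Adm lies below it, and Slc16a1 moves below 0.

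Related genes were counted from lists chosen by pathway, none of which held a called gene in limma in either comparison with normoxia. Of 25 further HIF targets outside glycolysis, 1 is Pfkfb3, described above. Of the other 24, 19 stood higher with SU5416 and 16 in hypoxia, against 47.4% and 48.8% of all genes, with medians of 0.22 and 0.10 log2. With SU5416, an unadjusted p under 0.05 was reached by 6 on the higher side (6.02% of all genes) and 1 on the lower side (6.7%). In hypoxia it was reached by 3 on the higher side (4.3% of all genes) and 0 on the lower side (5.29%). Bhlhe40, a transcriptional repressor, averaged 9.05 log2 with SU5416, 8.85 log2 in hypoxia and 8.55 log2 in normoxia, and both hypoxic groups lay above normoxia without overlap. Edn1, the precursor of the vasoconstrictor endothelin-1, stood 0.71 log2 higher with SU5416 (SE 0.18) and 0.30 log2 higher in hypoxia (SE 0.17). Cox4i2, a cytochrome oxidase subunit of the lung, stood 0.24 log2 higher with SU5416 (SE 0.15) and 0.45 log2 higher in hypoxia (SE 0.14). The 1 gene on the lower side was Vegfa, the growth factor whose receptors SU5416 inhibits, named after its values were seen. It differed by -0.52 log2 with SU5416, without overlap (SE 0.17, unadjusted p = 0.0119, limma adjusted p = 0.27), and by -0.16 log2 in hypoxia (SE 0.16). The lowest value of the list with SU5416 was -0.68 log2 for Stc2 (SE 0.40).

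Of 11 genes for the mitochondrial pyruvate carrier and for pyruvate dehydrogenase and its regulators, 10 were higher with SU5416 and 9 in hypoxia, against 47.4% and 48.8% of all genes. Their medians were 0.15 and 0.05 log2. This list holds kinases that shut pyruvate dehydrogenase as well as the enzyme itself, so its counts do not give a direction of pyruvate use. The smallest p-values were those of Pdhx (0.30 log2) and Mpc1, a subunit of the mitochondrial pyruvate carrier (0.32 log2), with SU5416, and of the pyruvate dehydrogenase kinases Pdk2 (0.39 log2) and Pdk4 (0.24 log2) in hypoxia. The 6 pentose phosphate genes had medians of 0.10 and 0.02 log2. In that list Taldo1, transaldolase, differed by 0.36 log2 and Tkt, transketolase, by 0.18 log2 with SU5416, and Rpia by -0.18 log2 and Taldo1 by 0.08 log2 in hypoxia. The 13 genes of glycogen and gluconeogenesis had medians of 0.08 and 0.00 log2. Pgm1, a phosphoglucomutase, differed by 0.32 log2 and Pygb, a glycogen phosphorylase, by -0.28 log2 with SU5416, and G6pc3 by -0.22 log2 and the branching enzyme Gbe1 by 0.27 log2 in hypoxia. The 7 tissue-restricted isoenzymes had medians of 0.05 and -0.12 log2. Of these, Eno3, the muscle enolase, differed by -0.45 log2 with SU5416 (SE 0.45) and -0.61 log2 in hypoxia (SE 0.42), Slc2a4 (GLUT4) differed by -0.43 log2 in hypoxia (SE 0.27), and Slc2a2 (GLUT2) was below background in each group.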

How the data were processed

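Total RNA from rat lung was labelled as cRNA and hybridised to Affymetrix arrays, per the labels. The deposited values are log2 signals, 1 per probe set and array. The submitters' processing notes name RMA, without a version. The array distributions differ, however, and the mean of the linear values trimmed by 2% at each end is 500 on every array, so the summarisation is uncertain. Array medians ran from 7.802 to 8.005 log2 and their number limits how precise the differences are.

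The 3 group means were fitted over the 11 arrays with limma 3.58.1 (R 4.3.3), leaving 8 residual degrees of freedom, with moderated variances and no replicate block, and 4 contrasts were taken. Of the probe sets, 57 array controls were set aside, 20826 of the others name 1 gene, 436 several and 9780 none. The naming rule took, per contrast, the 6 genes of the list with the smallest p. The genes, lists and rule were chosen with earlier results of these data known. Alternatives covered normalization, filters, variance models, array weights and left-out arrays (20 settings). Counts at an unadjusted p and the Aldoc bounds with an array left out were added after seeing the data. The procedure was tested on simulated data. Gene names came from the array annotation. Promoters and motif counts came from RefSeq windows with Python 3.11.15 and pandas 2.3.3, and figures from matplotlib 3.10.9.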

Additional observations from a re-analysis of the deposited data

Results flagged for a closer look

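Within the groups of 4 arrays, 6 of 72 gene and group combinations held an array far from the rest by Dixon's test, where chance gives about 1 in 20. Pfkfb1 had 7.16 log2 on normoxia array 1, with the others at 7.63 to 7.64. Pgam1 had 11.98 log2 on the same array, with the others at 12.16 to 12.17, and Eno1 had 10.67 log2 there, with the others at 11.28 to 11.33. Slc16a3 had 8.45 log2 on normoxia array 2, with the others at 8.87 to 8.92. On hypoxia array 3, Car9 had 6.95 log2, with the others at 7.38 to 7.41, and Ndrg1 had 10.77 log2, with the others at 11.03 to 11.07. Normoxia arrays 1 and 2 are those with the widest beta-actin gap.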

How the results depend on the processing

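Leaving out each array in turn called none of the 36 genes in any comparison, by limma. Leave-one-out counts at an unadjusted p under 0.05 on the higher side ran from 7 to 13 in hypoxia and 7 to 10 with SU5416. They ran from 9 to 12 in both groups and 0 to 1 for SU5416 against hypoxia. The shares of all genes ran from 2.59% to 5.22%, 3.76% to 6.91%, 4.73% to 6.61% and 2.52% to 4.58% in the same order. For SU5416 against hypoxia the count was 2 with trend and robust options (3.85% of all genes) and 3 with array weights (5.26%). It was 2 with the groups compared alone (4.84%), 1 with the beta-actin gap (4.24%) and 3 without normoxia arrays 1 and 2 (5.13%). In the main fit it was 0 (3.67%). Ldha was the 1 called gene with dim probe sets left out and with trend and robust options, with SU5416 (adjusted p = 0.0267 and 0.0216) and in both groups (0.0348 and 0.0331), and Pfkl the 1 called gene without normoxia arrays 1 and 2, in hypoxia (0.0233) and in both groups (0.0307). The median difference of the 36 genes moved to 0.22 log2 in hypoxia and 0.22 log2 in both groups on centring by the array median. The median of all genes rose with it, to 0.085 and 0.06 log2. For the 36 genes the median was 0.19 log2 in hypoxia and 0.0775 log2 with SU5416 without normoxia arrays 1 and 2. It was 0.08 log2 (0.0828) with SU5416 with the gap in the model, and 0.10 log2 (0.0978) in both groups as a mean over all probe sets. No gene reversed in a comparison for which the naming rule selected it. The cause of these shifts was not tested. Over all probe sets, calls in hypoxia with SU5416 numbered 19, and 214 with dim probe sets left out, 145 with trend and robust options, 43 after quantile normalization and 6 with the replicate block. In hypoxia 2 were called, and 99 without normoxia arrays 1 and 2. In both groups 2 were called, and 132 with dim probe sets left out, 75 with trend and robust options and 84 without normoxia arrays 1 and 2. The calls of Pfkl have only normoxia arrays 3 and 4 as their reference. The replicate number as a block called none of the 36 genes, with a lowest limma adjusted p of 0.313, 0.269, 0.237 and 0.638. The order is hypoxia, SU5416, both groups and SU5416 against hypoxia. Counts at an unadjusted p on the higher side were 10, 9, 9 and 0, against 3.85%, 4.96%, 5.23% and 3.73% of all genes. Arrays of the same number correlated by -0.12 to 0.13 over 10 pairs, and arrays of different numbers by -0.13 to 0.14 over 30 pairs. The array of the same number correlated best in 6 of 20 checks. With 3 or 4 arrays a group, these values cannot settle whether the numbers pair the arrays.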
